A study of Drosophila melanogaster with 3 samples.

Results

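Binding of NfI around 10 genes of the fly blood cells, the hemocytes, was described from chromatin immunoprecipitation sequencing (ChIP-seq) of whole embryos. The genes were taken by name: srp, ush, lz, Pvr, Pxn, crq, Hml, Col4a1, vkg and PPO3, which are 10 of the 13945 protein-coding genes on the 6 chromosome arms analysed. For each gene, peak summits were collected in the gene body and 10 kb on each side, which gave 10 windows of 394 kb in all. The windows of vkg and Col4a1 overlap, since the genes are neighbours. No summit of the authors' optimal list, described below, lay in both, but weaker summits of the pooled and replicate lists did.

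The flies carried a transgene that expresses NfI, a transcription factor related to the vertebrate nuclear factor I proteins, with green fluorescent protein at its C terminus. Embryos of both sexes, aged 12 to 24 h per the source label, formed 1 group with biological replicates 2, 3 and 4. The sample descriptions speak of an input control, whereas the assay title and the antibody label name a transcription factor ChIP, and the libraries were treated as immunoprecipitates. The antibody label names NfI and not the fused protein. The labels do not give where in the embryo the fusion is made or how many embryos were pooled. Each replicate list held 30000 peaks, background included, of which 13037, 8464 and 5138 had a q-value of 0.01 or lower in replicates 2, 3 and 4. The authors' optimal list, which passed a threshold on the irreproducible discovery rate (how well peak ranks repeat between replicates), held 5806 peaks.

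Hemocytes of the embryo arise from head mesoderm and spread through the whole embryo. Most become plasmatocytes, which engulf dying cells and secrete basement membrane, and a few become crystal cells, which carry prophenoloxidases for melanization. The GATA factor Serpent (srp) starts the lineage, its partner U-shaped (ush) restrains the crystal cell fate, and the Runx factor Lozenge (lz) directs that fate. The receptor tyrosine kinase Pvr guides migration and survival, Croquemort (crq) is a scavenger receptor for apoptotic cells, and Peroxidasin (Pxn), Hemolectin (Hml) and the collagen IV chains Col4a1 and Viking (vkg) are secreted. PPO3 is a prophenoloxidase, known in larvae from lamellocytes. Hemocytes are a small share of the cells of an embryo, and the number of cells in which a site is bound cannot be told apart from how strongly it is bound in each. Several of these genes are also active elsewhere: ush in the amnioserosa and dorsal ectoderm, srp in the fat body and endoderm, and both collagen genes in the fat body. The files hold no measure of expression, so which cells gave a peak was not tested.

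The 10 windows held 37 optimal summits, and 18 of them lay at ush. Counts per window were 2 at srp, 18 at ush, 0 at lz, 2 at Pvr, 2 at Pxn, 1 at crq, 2 at Hml, 3 at Col4a1, 2 at vkg and 5 at PPO3. Thus 9 of 10 genes had a summit in their window, where 69.3% of all protein-coding genes did. Fewer had one at the gene itself. A summit within 500 bp of an own transcription start site (TSS) was found at ush and PPO3, 2 of 10 genes against 26.1% of all. The same 2 genes had a summit inside the gene body, against 14.4% of all, and a summit in the body or at an own TSS was found at no other member, against 30.7% of all. Outside gene bodies, 8 summits lay upstream of the genes, that at the PPO3 TSS included, and 15 downstream.

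**Figure D1:**
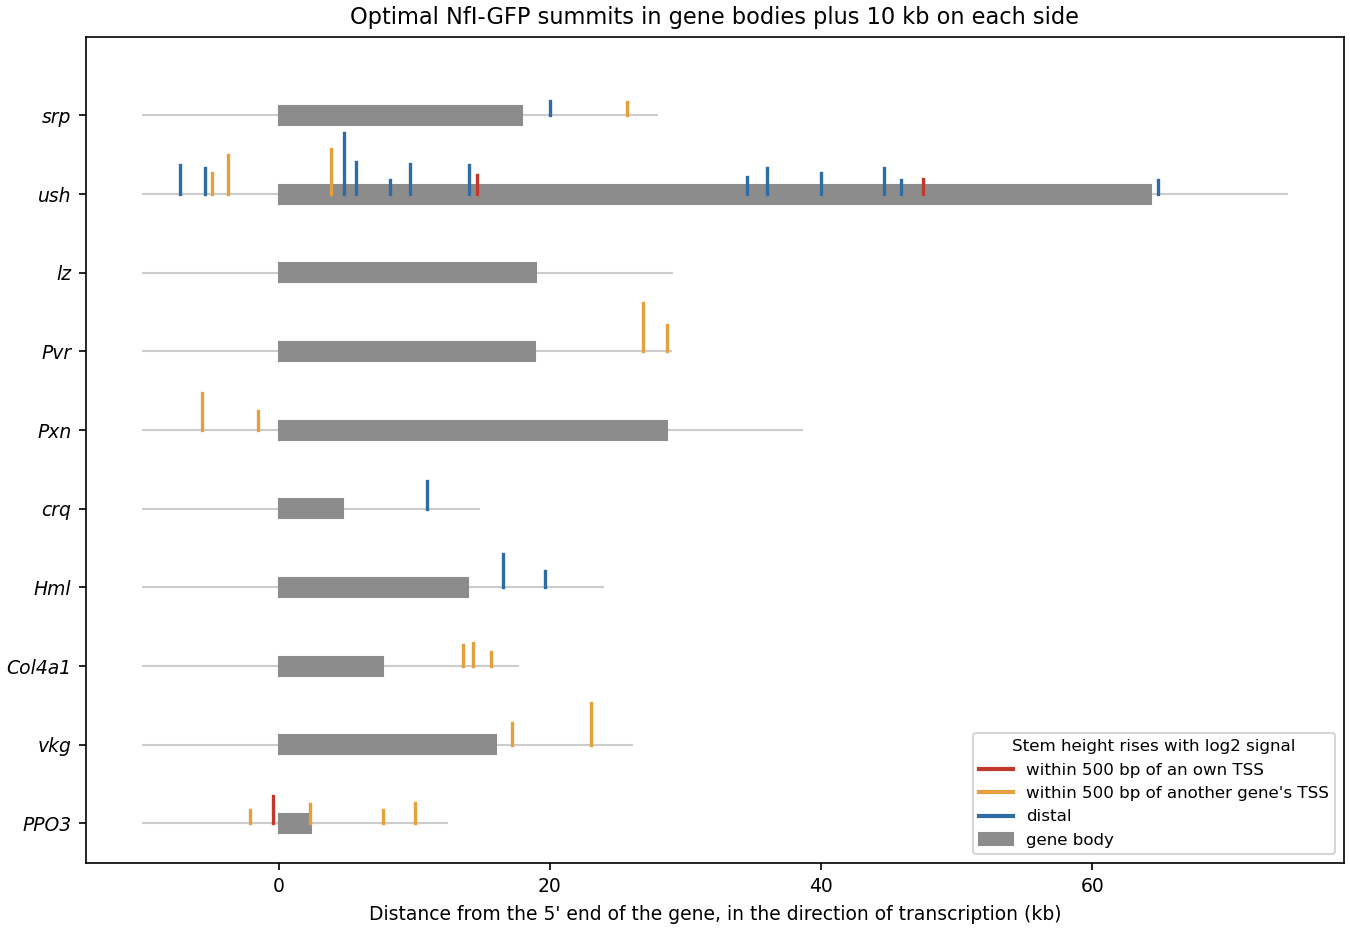
Position of the 37 optimal summits along the 10 genes, in kb from the 5′ end of each gene in the direction of transcription. Grey boxes are gene bodies, thin lines the flanks of 10 kb, and stems are summits whose height rises with log2 signal, coloured by whether they lie within 500 bp of an own TSS, of another gene's TSS, or of none; 13 of the 14 summits inside gene bodies are those of ush.

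Of the 37 summits, 20 lay within 500 bp of the TSS of any gene, 3 of them at an own TSS and 17 at that of another gene, and 17 were distal. The promoter share of 54.1% stood beside 53.6% over all optimal summits. The split followed ush: without its window 15 of 19 summits were at promoters, 1 of them at an own TSS, whereas 13 of the 18 in the ush window were distal. Median peak signal, which is the authors' value on a scale that is not stated, was 448 in the ush window and 332 over the other 9 windows. Over all optimal peaks it was 299.

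U-shaped encodes a multitype zinc finger protein of the Friend-of-GATA family that binds Serpent and Pannier. Its gene (FBgn0003963, 2L:476220-540560, plus strand) held 13 summits in the gene body, 4 upstream and 1 downstream. Of the 13 in the body, 10 were intronic and the other 3 fell in 5′ UTR exons, of which 2 were at an own TSS. The strongest peak was 4.8 kb into the gene, in its first intron, at 2L:480884-481294, and ranked 5 in the optimal list with a signal of 4745. In the replicates it ranked 7, 9 and 4. Its relative signal, the signal divided by the median of the replicate's 5806 strongest peaks, was 14.6, 14.98 and 18.7 in replicates 2 to 4 (mean 16.1 ± 2.29, SD, n = 3). The 3 values lay close together, and every other peak of the 10 windows was lower in every replicate.

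The intron that holds this peak also holds cbt (FBgn0043364, 2L:476446-479688, minus strand), a gene for a zinc finger transcription factor that is read toward the ush start. The summit was 1369 bp from the cbt TSS, nearer than any ush TSS. A weaker peak 3.9 kb into ush lay 389 bp from the cbt TSS and had relative signals of 4.54, 5.30 and 6.03. A further peak at 5.7 kb reached 2.27, 2.37 and 2.02, and one at 9.7 kb reached 1.90, 1.93 and 1.66. These 3 peaks stood above the replicate median in all replicates. By the nearest TSS of any gene, 7 of the 18 summits belonged to ush, 4 to cbt, 4 to CG4297 upstream, 2 to lncRNA:CR46259 and 1 to lwr. The assignment of a peak to ush or cbt was not tested.

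The ush gene has 4 annotated TSSs, and the summits at own promoters lay at internal ones. The summit at 14.6 kb was 20 bp from the TSS at position 490835, which it shares with lncRNA:CR46258, and had relative signals of 0.79, 1.01 and 0.82 (0.871 ± 0.118, SD, n = 3). The summit at 47.5 kb was 24 bp from the TSS at position 523736 and had 0.789, 0.556 and 0.733 (0.693 ± 0.122, n = 3). They ranked 3141 and 4553 in the optimal list, with signals of 284 and 211, both under the median of 299 over all optimal peaks. At the first TSS, position 476220, the nearest optimal summit was 3742 bp away, and a summit within 500 bp was found in the list of replicate 2 alone, 4 bp away.

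The sequences under the summits of distal peaks are shown for ush, the gene with most summits, and for crq and Hml, whose strongest peaks were distal too. They are the plus strand of dm6 over the summit and 100 bp on each side, from the RefSeq copy of the assembly, with capitals marking GATAA (the core bound by GATA factors such as Serpent), ACCACA (the core bound by Runx factors such as Lozenge) and TTGGC (an arm of the nuclear factor I palindrome) or their reverse complements. For the ush start at 14.6 kb, 30 bases around the TTGGC match are given. Names give the distance from the 5′ end of the gene. The windows are 2L:480957-481157, 2L:485781-485981, 2L:490773-490802, 2L:442013-442213 and 3L:13862495-13862695 in this order.
ush +4.8 kb: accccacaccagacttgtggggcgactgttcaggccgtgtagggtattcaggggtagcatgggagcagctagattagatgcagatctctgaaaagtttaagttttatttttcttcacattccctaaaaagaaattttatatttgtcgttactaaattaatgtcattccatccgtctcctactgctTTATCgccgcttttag
ush +9.7 kb: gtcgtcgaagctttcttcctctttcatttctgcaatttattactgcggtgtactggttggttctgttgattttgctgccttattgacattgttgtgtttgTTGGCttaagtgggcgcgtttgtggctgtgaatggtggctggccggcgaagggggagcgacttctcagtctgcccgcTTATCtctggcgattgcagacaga
ush +14.6 kb: tctctctctctTTGGCCAActggagagctt
crq +10.9 kb: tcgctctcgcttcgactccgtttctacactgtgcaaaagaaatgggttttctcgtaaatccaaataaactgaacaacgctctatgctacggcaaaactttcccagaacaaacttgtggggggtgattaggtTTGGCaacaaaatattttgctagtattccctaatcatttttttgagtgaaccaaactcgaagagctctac
Hml +16.5 kb: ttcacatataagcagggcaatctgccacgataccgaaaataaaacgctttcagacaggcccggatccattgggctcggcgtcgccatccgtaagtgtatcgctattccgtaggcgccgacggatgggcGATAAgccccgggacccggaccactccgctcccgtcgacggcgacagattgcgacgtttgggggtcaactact

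The strongest peak, 4.8 kb into ush, held 1 GATAA core (as its reverse complement) near the right edge and no TTGGC arm. The peak at 9.7 kb held 1 of each, with the TTGGC arm at the summit itself. At the 14.6 kb start, TTGGC and its reverse complement overlap in 8 bases beside a run of pyrimidines; this arrangement, picked after the sequence was seen, occurred in 43 of 5806 optimal windows (0.741%). The arms overlap there, whereas the full palindrome has 5 bases between them. Hml showed 1 GATAA core and crq 1 TTGGC arm. None of the 5 stretches held ACCACA.

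Over the 37 windows the same cores were about as common as over all optimal peaks. GATAA on either strand was found in 16 windows (43.2%), against 41.0% of all optimal windows of that length. TTGGC was found in 12 (32.4%, against 35.6%), and ACCACA in 3 (8.11%, against 7.63%). The full palindrome, TTGGC and GCCAA with 5 bases between, was found in 0 of 37 windows and in 0.0689% of all. Other motifs were also counted. The E-box CAGCTG was in 6 windows (16.2%, against 10.7%). The repeat bound by GAGA factor (GAGAGAG) was in 2, both at ush (5.41%, against 3.74%). TAATTA, the core of many homeodomain sites, was in 2 (5.41%, against 16.4%). TATCGATA, the core of the DRE promoter element, was in 1 (2.70%, against 4.63%), in the Pxn flank, while GGTCACACT and TGACTCA were in none (2.34% and 1.93% of all). Each search used both strands, TTGGC is part of the palindrome, and at these counts a single window moves a share by several percent. Median GC content was 39.8% in the 17 distal windows, 13 of them at ush, and 35.3% in all distal windows. In the 20 promoter windows it was 39.3%, against 36.8% in all promoter windows.

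The number of summits at ush was tested against the mean density over the 6 arms, with a 2-sided exact binomial test per gene and Benjamini-Hochberg adjustment over all 13945 genes. The 84.3 kb window of ush held 18 summits where 3.66 were expected, a 4.92-fold excess (95% interval 2.92 to 7.77, exact binomial adjusted p = 6.24e-05), or 21.3 per 100 kb. Of all genes, 2.68% passed the threshold of 0.05 with more summits than expected and 0.0717% with fewer. Among the 10 genes ush passed, and none passed with fewer. By raw p, ush was 15th of all genes, and by density it ranked 644, since short windows can reach high densities with few summits. Without cbt and 5 kb around it, an exclusion chosen after the peaks were seen, 13 summits remained against 3.08 expected, 4.22-fold (exact adjusted p = 0.00416). Within the gene body 13 summits stood against 2.79 expected; among 224 genes with bodies of 50 to 100 kb, the median was 1, the highest count was 14 and 3 genes had 13 or more, ush included. The test treats summits as independent and does not measure the spread between replicates.

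**Figure D2:**
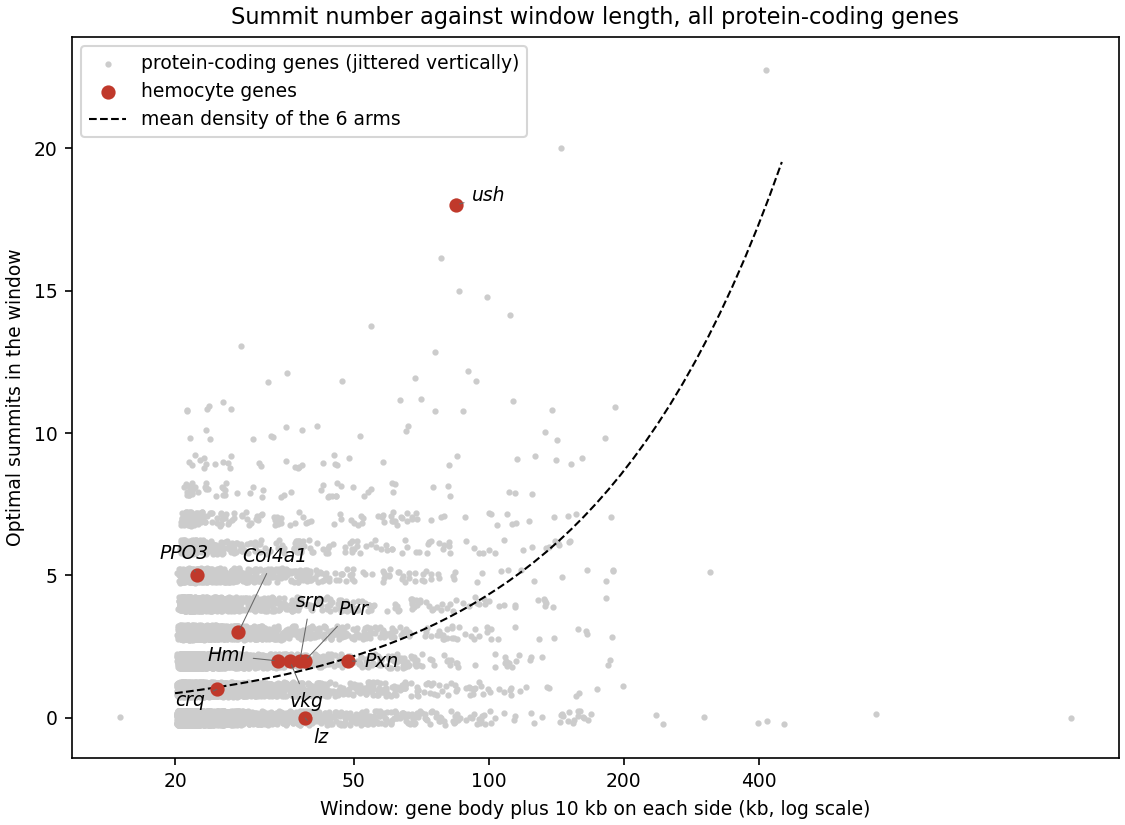
Number of optimal summits against the length of the gene window in kb, on a log axis, for all 13945 protein-coding genes (grey, jittered vertically) and the 10 hemocyte genes (red, at their exact counts). The dashed line is the mean density of the 6 arms; ush, with 18 summits, lies far above it, lz lies at 0, and the 4 points at 2 summits left of Pxn are Hml, vkg, srp and Pvr.

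The ush summits were also abundant in each replicate. Its window held 30 summits with a q-value of 0.01 or lower in replicate 2, 25 in replicate 3 and 18 in replicate 4, a mean of 24.3 ± 6.03 (SD, n = 3). The order follows the total number of such peaks in the lists, and among the 5806 strongest peaks of each replicate, where list length is equal, the counts were 19, 17 and 20. Of its 18 optimal peaks, 14 overlapped such a peak in every replicate, as did 10 of the 13 in the body. Over all optimal peaks this share was 55.3%. The optimal list was itself derived from these replicates, so the overlap is not separate support. Some peaks varied widely: the one at 45.9 kb had relative signals of 0.212, 0.969 and 1.21, and that at 44.6 kb 1.02, 2.35 and 1.70. Replicate 2 was the lowest in both.

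Upstream of ush, 4 peaks lay at CG4297. The strongest, 3.7 kb upstream (2L:472336-472617), was 278 bp from a CG4297 TSS and had relative signals of 2.77, 4.36 and 4.06. The other 3 reached optimal signals of 574, 448 and 323. The single summit downstream of ush, at 64.9 kb, fell in the 3′ UTR of lwr, the SUMO-conjugating enzyme gene, and had relative signals of 1.17, 0.552 and 0.558.

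The srp window held 2 optimal summits where 1.65 were expected, and the lz window held none. At srp (FBgn0003507, 3R:15986152-16004085) no optimal summit lay in the body or at any of its 4 TSSs. The 2 summits of its window were downstream, at 19.98 kb in an intron of lncRNA:CR42839 and at 25.7 kb at the promoter of GATAe, a neighbouring GATA factor gene of the endoderm. Both were weak, with signals of 200 and 191, and ranked 4829 and 5157 of 5806. The first had relative signals of 0.721 and 0.668 in replicates 2 and 3 and no overlapping peak in replicate 4. The second had 0.432, 0.903 and 0.718. Density was 1.22-fold of that expected (exact binomial adjusted p = 1). Inside the srp body the best peak of the pooled list ranked 14315, with a −log10 q of 0.887.

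At lz (FBgn0002576, X:9284649-9303636) the 39.0 kb window held 0 optimal summits where 1.69 were expected; the 95% interval of the ratio reached 2.18 and the adjusted p was 0.917. The expected count is too low for a test of absence. No list had a peak within 500 bp of an lz TSS. In the body, the best pooled peak ranked 8656 with a −log10 q of 2.11. Replicate 2 had none in the body, and the best of replicates 3 and 4 had 2.37 and 1.52. Both of these lay at position 9295753, apart from the pooled summit at 9298274.

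At the receptor gene Pvr (FBgn0032006, 2L:8220980-8239878) the body and own TSSs were again empty in the optimal list, and both summits lay downstream at neighbours. The peak at 26.9 kb (2L:8212842-8213188), shared by the starts of CG8360 and CG8372, was one of the strongest of the set, with a signal of 2064, rank 86 and relative signals of 5.88, 6.88 and 7.499. The peak at 28.6 kb lay at Ssb-c31a and Su(var)205, the gene of heterochromatin protein HP1a, and had 1.86, 1.10 and 1.13. Weaker peaks stood within 500 bp of a Pvr TSS outside the optimal list. The best of the pooled list, with its summit at position 8239832, ranked 9013 with a −log10 q of 2.00. The best of replicate 2, at 8239826, had 4.24 and that of replicate 4, at 8239820, had 0.634. In replicate 3 the best lay apart from these, at 8239032, with 1.96. The Pvr body held such peaks too, the best of the pooled list ranked 8330 with a −log10 q of 2.24. The best in the body had 4.24, 3.12 and 0.766 in replicates 2, 3 and 4.

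The scavenger receptor gene crq (FBgn0015924, 2L:448254-453024) had 1 summit, 10.9 kb from its start and beyond its 3′ end, in an intron of ex (expanded, of the Hippo pathway) at 2L:442016-442208. Its signal was 505, rank 1410, and its relative signals were 2.15 and 2.47 in replicates 3 and 4. Replicate 2 had no overlapping peak among its 30000. The body and own TSS of crq had no peak in the pooled list, nor in replicates 2 and 4.

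The genes of secreted proteins showed the same arrangement. Pxn (FBgn0011828, 3L:2601455-2630064), an enzyme that crosslinks collagen IV, had 2 summits upstream at MEP-1. The nearer, 1.5 kb from the Pxn start and also at CG42245, had relative signals of 1.15, 1.04 and 0.549, and the farther, at 5.6 kb, had 2.97, 2.44 and 3.79. No list had a peak within 500 bp of the Pxn TSS. Hml (FBgn0029167, 3L:13846054-13860001), a clotting protein and common plasmatocyte marker, had no peak in its body or at its TSS in any of the 5 lists. Its 2 summits lay downstream in CG8745, at 16.5 kb (3L:13862475-13862721) with relative signals of 2.11, 2.01 and 3.30, and at 19.6 kb with 0.440, 1.06 and 0.867.

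Both collagen IV genes lie head to head, Col4a1 at 2L:5029609-5037279 (FBgn0000299) and vkg at 2L:5012144-5028191 (FBgn0016075). No optimal summit lay between them or in either body. The 3 summits of Col4a1 clustered 13.6 to 15.7 kb from its start at the promoters of CG31650, CG33995, CG44000 and CG44001, with mean relative signals of 0.949 ± 0.235, 1.22 ± 0.256 and 0.788 ± 0.0849 (SD, n = 3). The density was 2.50-fold of that expected (95% interval 0.516 to 7.30, exact binomial adjusted p = 0.479). At vkg the peak at 23.0 kb (2L:5005004-5005334) lay at a promoter of Rtnl1, a reticulon gene, and ranked 235, with 4.9999, 3.99 and 3.49. The peak at 17.2 kb lay at SelT, Tfb5 and CG31917 and had 1.49, 0.946 and 0.676. The best pooled peak at the Col4a1 TSS ranked 11462, and vkg had no pooled peak in its body or at its TSS.

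PPO3 (FBgn0261363, 2R:23064769-23067183) was, with ush, the gene with a summit at an own TSS. This summit was 395 bp from the PPO3 TSS and nearer, 114 bp, to that of CG9890. Its signal was 517, rank 1363, and its relative signals were 1.86, 1.87 and 1.09 (1.61 ± 0.446, SD, n = 3). All 3 replicates had it above their median. A summit inside the gene, at 2.3 kb, fell in the PPO3 3′ UTR and 98 bp from a TSS of l(2)k09913, with 0.527, 1.18 and 1.57. The other 3 lay at DCTN3-p24, at the genes tRNA:Ser-TGA-1-1 and tRNA:Ser-TGA-2-1, and at Fib, which encodes fibrillarin, and CG3085. All 5 were within 500 bp of a TSS. The window of 22.4 kb held 5 where 0.972 were expected, 5.14-fold (95% interval 1.67 to 12.0), with a raw exact binomial p of 0.00325 and an adjusted p of 0.0685. With expected counts that allow for promoter bases the ratio was 2.25 (exact adjusted p = 0.713).

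Peaks of the 10 windows were present in most replicates. An overlapping peak among the 5806 strongest of every replicate was found for 25 of 37 (67.6%), beside 55.3% of all optimal peaks; 8 were matched in 2 replicates, 4 in 1 and 0 in none. Taking ush apart, 11 of the other 19 were matched in all 3, close to the 55.3% of all optimal peaks. In the full lists 34 of the 37 were, and no share over all optimal peaks stands beside that count. The median relative signal was 1.04, 1.19 and 1.32 in replicates 2, 3 and 4, where all optimal peaks had 1.01, 1.04 and 1.08. Over the 34 peaks found in all lists the mean was 1.93, 2.17 and 2.35, or 2.15 ± 0.210 (SD, n = 3). The peak 4.8 kb into ush, with 14.6 to 18.7, raises this mean well above the medians. No mean over all optimal peaks stands beside it. Adjacent optimal peaks can share 1 replicate peak. Within the optimal list, 23 of 37 peaks lay above the median rank.

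**Figure D3:**
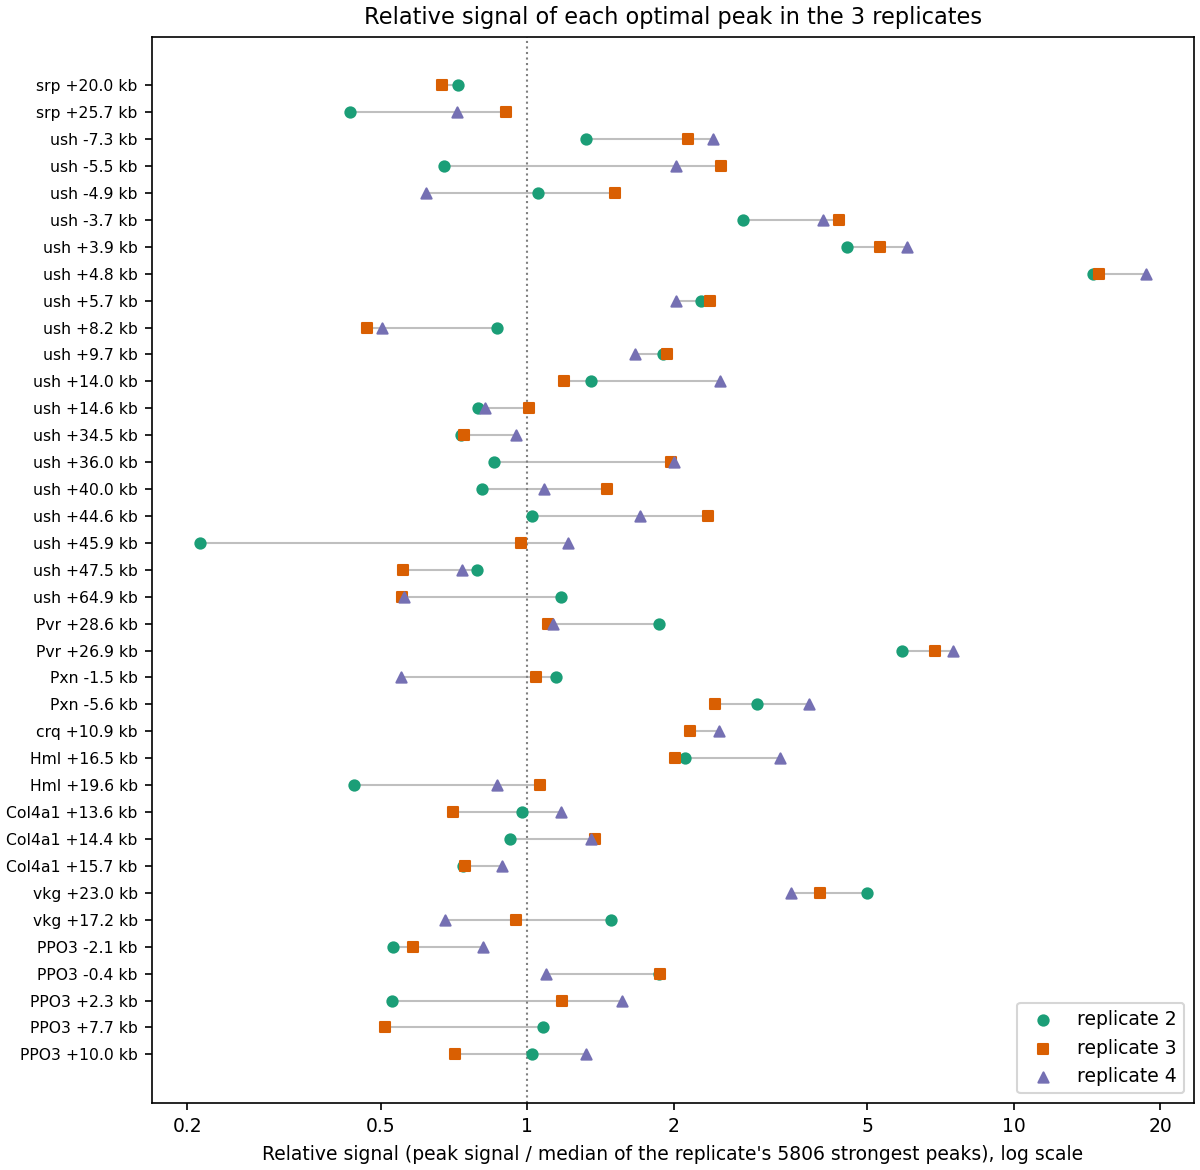
Relative signal of each of the 37 optimal peaks in replicates 2, 3 and 4 on a log axis, named by gene and distance in kb from its 5′ end; the dotted line is the median of a replicate's 5806 strongest peaks, lines join the replicates of a peak, and a missing symbol means no overlapping peak. The peak 4.8 kb into ush lies between 14.6 and 18.7, to the right of all others.

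**Figure D4:**
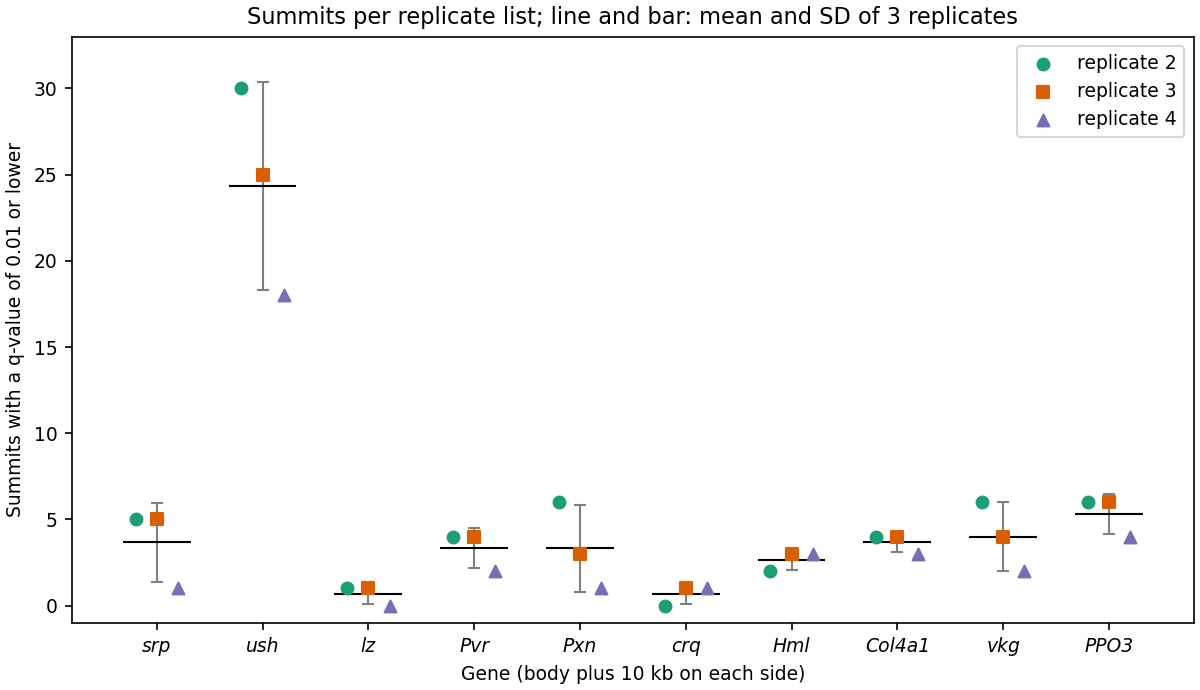
Number of summits with a q-value of 0.01 or lower in each gene window, for each replicate, with the mean and SD of 3 replicates as line and bar. The ush window holds 18 to 30 and every other window 0 to 6. Summed over the windows, replicate 2 has 64, replicate 3 has 56 and replicate 4 has 35.

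The same counts were made for 28 further hemocyte genes. A summit lay in the window of 16 of them (69.3% of all genes), at an own TSS of 3 (26.1% of all) and in the body of 5 (14.4% of all), and by the exact binomial test none passed the density test in either direction. Among genes of blood cell fate, all 5 (gcm, gcm2, zfh1, kn and Hand) had a summit in the window and 0 at an own TSS. The strongest by rank was 253 in the window of gcm, the glial and plasmatocyte determinant, at the promoter of its neighbour brwl, then 635 at zfh1 and 2054 at kn, which encodes the lamellocyte factor Collier and whose summit lay at BEAF-32. Of the ligands of Pvr, Pvf1, Pvf2 and Pvf3 each had a summit, 0 at an own TSS. Pvf3 had 5 in its body, the strongest ranked 2207, while the strongest of Pvf1 (832) lay at shop and htk and that of Pvf2 ranked 4079.

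Of 6 genes for surface and phagocytosis proteins, 2 had a summit. The engulfment receptor drpr had one at its own promoter (rank 3513) and a stronger one elsewhere (1857), and Sr-CI had its strongest at rank 2347. He and NimC1, surface markers of hemocytes, had 0. In the crystal cell group 1 of 3 genes had a summit, PPO1, ranked 2930, while PPO2 and peb had 0. Of 11 matrix genes, 5 had a summit and 2, the lysyl hydroxylase Plod and the protease Mmp2, had one at an own TSS, ranked 3832 and 5317. Plod had 6 in its window, 4.97-fold of that expected (exact adjusted p = 0.0555), the strongest at CG42671 (rank 885). SPARC, a collagen-binding protein, had 4 (4.05-fold, exact adjusted p = 0.174), the strongest at His2Av and ball, and LanB1 had 4 with the strongest at mts and Rack1 (rank 386). LanB2 and wb, which encode laminin chains, had 0.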

How the data were processed

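ChIP-seq of NfI fused to green fluorescent protein was analysed in 3 biological replicates of 1 group. Per the files' headers and listings, the deposited narrowPeak lists (dm6) are 1 per replicate, 1 pooled from all 3, and an optimal list derived from them. A control alignment was shared by all. Aligner and peak caller were not given in the sources used here. Each peak's signal is the authors' deposited value on a scale not stated, and its significance is the deposited −log10 q-value, which is equal for all optimal peaks. No read counts were used, so depth is unknown. The labels give sonicated fragments of 200 to 800, without a unit. An age label in hours that cannot be an embryo's was not used.

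Genes and TSSs came from Ensembl release 115, BDGP 6.54, which has dm6 coordinates, without transposable elements. A promoter summit lay within 500 bp of a TSS. Peaks matched at an overlap of 1 bp. Expected summit counts are the share of bases of the 6 arms. Motifs were sought in the summit and 100 bp on each side. Gene members, lists, motifs and the named-gene rule were chosen with earlier results of these data known. The rule named all members, every gene with a TSS within 500 bp of a member summit or nearest to one, and per further list the 3 genes with the strongest summit and up to 2 without one. The density test was tested on simulated data, with summits placed at random over the arms and in planted dense windows. Simulated summits did not cluster at promoters, so how the test behaves under such clustering was not tested. Alternatives were other flanks, TSS distances, overlap rules, windows, list lengths and expected counts, and leaving out each replicate in turn, which kept the optimal peaks that overlap strong peaks of both others. Intervals cover only the counting of summits. The labels call the 3 samples biological replicates but do not say that they came from separate collections. Python 3.11.15, pandas 2.3.3, scipy 1.17.1 and statsmodels 0.14.6 were used.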

Additional observations from a re-analysis of the deposited data

How the results depend on the processing

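With ush, the density result held under every alternative tried, with adjusted exact binomial p-values from 1.23e-05 to 0.00416 and folds from 3.98 to 6.67. PPO3 did not pass under any. With flanks of 20 kb 2 genes passed, since vkg joined (3.29-fold, exact adjusted p = 0.0480). At that flank the vkg window takes in the summits counted for Col4a1 above, so its count is not separate from that of Col4a1. With flanks of 5 kb the summits fell to 23, with 10 at promoters; in the stronger part of the list they were 23, with 12 at promoters. A summit at an own TSS remained at 1 gene with a distance of 250 bp (ush) and at 1 gene in the stronger part (PPO3), and at 3 with pooled peaks of q 0.01 or lower, Pvr added. Divided by the median of the strongest 1000 peaks, mean relative signal was 0.688, a change of scale by construction. Leaving out each replicate gave 26 to 30 summits in 7 to 9 windows, 15 to 16 at promoters, 2 own-TSS genes, 1 gene past the test and a mean relative signal of 2.05 to 2.26. By construction the number of summits can only fall under this rule. The whole list fell too, from 5806 peaks to 4028, 3572 and 3814 without replicates 2, 3 and 4. The srp window held no summit without replicate 3, and the crq window none without replicate 3 or 4. These losses follow from the rule. The crq peak had no overlapping peak in replicate 2. Of the srp peaks, that at 19.98 kb had none in replicate 4, and that at 25.7 kb had none among the strongest of replicate 2. Over all genes the number with more summits than expected was 374, against 158 with flanks of 5 kb, 1040 with 20 kb, 121 in the stronger part, 575 with pooled peaks, 71 by promoter and other bases, and 248 without replicate 2. Within 50 bp of the member summits the share with GATAA was 18.9%, with CAGCTG 5.41%, and with ACCACA and TAATTA 0. Within 200 bp that with TTGGC was 51.4%. By construction a share cannot rise in a shorter window or fall in a longer one. No shares over all optimal windows of these lengths stand beside these values. No paired analysis was possible because there is 1 group. Weak peaks are limited by unknown depth.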

Other observations

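Some replicate peaks that passed a q-value of 0.01 overlapped no optimal peak. In the ush window these were 12 of 30 in replicate 2, 6 of 25 in replicate 3 and 2 of 18 in replicate 4. In the srp window they were 3 of 5, 3 of 5 and 0 of 1, and in the vkg window 4 of 6, 2 of 4 and 0 of 2. In the Pxn window they were 3 of 6, 1 of 3 and 0 of 1. The other windows are not listed here. The whole lists held 13037, 8464 and 5138 peaks at this q-value in replicates 2, 3 and 4, against 5806 optimal peaks. No share without an optimal match over the whole lists stands beside these counts, so they are not read as a trait of the windows.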
